A study of Mus musculus with 24 samples.

Results

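The 34 p53 target genes described here were taken as a list of gene symbols and matched to the rows of both deposited expression tables, each of which holds 55487 genes, and all 34 were found in both. The list holds Trp53 itself, its feedback inhibitor Mdm2, and genes of growth arrest, apoptosis, DNA repair and metabolism that p53 is known to activate. Their levels were compared gene by gene across 8 groups of 3 libraries. The cells were Cas9-LPs, lymphoid progenitor (LP) lines that came from mouse fetal liver. All groups, controls included, are Ebf1-deficient and carry the Rosa26-Cas9 knock-in allele. They were transduced with a retrovirus coding for a single guide RNA and the surface tag hNGFR, and hNGFR+CD45+ cells were sorted 5 days later for QuantSeq, which reads 1 tag near the 3′ end of each mRNA.

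In experiment 1, cells carrying sgControl or sgCbfb were kept on OP9 stroma (LP) or on OP9-DLL4 stroma, which presents the Notch ligand DLL4 (Phase 1). The study describes its Phase 1 cells as stimulated through Notch for 2 days. In experiment 2, LP cells on OP9 carried sgControl, sgCbfb, sgCTCF or sgMed12. The LP lines were maintained on OP9 cells treated with mitomycin C, a DNA crosslinking agent, in every group. The sgControl guides target luciferase, a gene that mouse cells lack, and are called non-cutting here. The other guides cut Cbfb, which encodes the partner of the RUNX factors, Ctcf, which encodes an insulator-binding protein, or Med12, which encodes a Mediator subunit. For each gene the study made virus from pooled plasmids of several sgRNAs. Each guide named here therefore stands for a pool with more than 1 possible cut site. A cutting guide both breaks DNA and disrupts its target gene, and in this design those effects cannot be told apart. The number of Cas9-LP lines behind each group is not given in the sources used here, and the study describes its replicates as biologically independent.

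The p53 protein is a transcription factor that is kept at a low level by the ubiquitin ligase Mdm2 and is stabilized after DNA breaks, replication stress or oncogene activity. It then switches on genes that stop the cell cycle (such as Cdkn1a), that permeabilize mitochondria or arm death receptors (Bbc3, Pmaip1, Bax, Fas), and that repair DNA or adjust metabolism, while Mdm2 closes a negative feedback loop. Lymphoid progenitors are sensitive to p53, which in developing thymocytes acts when rearrangement of the antigen receptor genes leaves breaks unrepaired.

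p53 binds DNA as a tetramer at paired half-sites. RefSeq promoter windows on GRCm38.p6, which reach from upstream of each annotated start into the first bases of the transcript, were found for 26 of the 34 members and were searched for the p53 half-site consensus, a palindrome of 10 letters that reads the same on both strands. A half-site was present in 9 of the 26 (34.6%), against 2582 of 27025 genes with a window (9.55%). Only exact matches were counted, so half-sites with a mismatch were missed. A pair of exact half-sites no more than 13 bases apart was present in 1 member, Cdkn1a, and in 20 genes of all (0.074%). The windows of 4 members whose mRNA changed in the comparisons below are shown, 5′ to 3′ on the gene's own strand, with each half-site in capitals. The Cdkn1a window, at 1 of its 2 annotated starts, is chr17:29090729-29091028 on the plus strand, with half-sites starting 73 and 51 bases before that start. The 10 letters that directly follow the half-site at 51 bases come close to the consensus without an exact match and are not marked. The marked pair need not be the element that p53 uses. That of Mdm2 is chr10:117710709-117711008 on the minus strand. That of Ccng1 is chr11:40755237-40755536 on the minus strand. That of Sesn1, 1 of its 2 annotated starts, is chr10:41887189-41887488 on the plus strand. In Mdm2, Ccng1 and Sesn1 the half-site starts 186, 185 and 173 bases before the start.
Cdkn1a: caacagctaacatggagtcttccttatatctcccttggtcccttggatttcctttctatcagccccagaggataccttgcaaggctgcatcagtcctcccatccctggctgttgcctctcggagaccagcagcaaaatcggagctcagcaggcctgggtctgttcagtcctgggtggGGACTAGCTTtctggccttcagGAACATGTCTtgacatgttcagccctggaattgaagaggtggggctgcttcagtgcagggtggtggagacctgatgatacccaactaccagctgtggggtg
Mdm2: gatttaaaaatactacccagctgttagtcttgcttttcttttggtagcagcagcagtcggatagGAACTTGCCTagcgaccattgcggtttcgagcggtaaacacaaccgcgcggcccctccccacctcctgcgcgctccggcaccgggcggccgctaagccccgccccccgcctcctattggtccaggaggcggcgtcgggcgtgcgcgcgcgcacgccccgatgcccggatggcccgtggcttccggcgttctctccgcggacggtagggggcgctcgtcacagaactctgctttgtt
Ccng1: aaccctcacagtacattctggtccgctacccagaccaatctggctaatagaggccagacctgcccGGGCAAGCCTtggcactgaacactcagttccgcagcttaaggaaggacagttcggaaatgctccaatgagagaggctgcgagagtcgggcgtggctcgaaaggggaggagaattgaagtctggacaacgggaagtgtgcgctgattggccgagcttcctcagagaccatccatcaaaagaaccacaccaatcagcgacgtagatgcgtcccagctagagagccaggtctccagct
Sesn1: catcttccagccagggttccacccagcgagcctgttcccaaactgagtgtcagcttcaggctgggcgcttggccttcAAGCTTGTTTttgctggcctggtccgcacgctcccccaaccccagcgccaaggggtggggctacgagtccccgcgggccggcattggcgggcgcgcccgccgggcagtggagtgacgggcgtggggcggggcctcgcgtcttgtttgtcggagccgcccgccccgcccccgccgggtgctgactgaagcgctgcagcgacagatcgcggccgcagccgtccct
The other members with a half-site in their window were Trp53, Bax, Polk, Ei24 and Aen, of which Bax, Polk and Ei24 also gave calls below. Members without a window were not searched, so whether they hold a half-site is not known here. Such a match describes the letters of the window and does not show that p53 binds there.

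The libraries of experiment 1 held 1363264 to 1743320 reads on genes and those of experiment 2 held 3354486 to 4326787, so that a gene with 0 reads could still stand at up to 1.72 to 2.20 CPM (reads scaled to the same total in every library, the deposited unit) in experiment 1 and 0.693 to 0.894 CPM in experiment 2. Of the 34 members, 31 were tested in experiment 1 and 33 in experiment 2, having at least 1 CPM in 3 or more libraries. Eda2r passed in neither experiment, and Gdf15 and Zfp365 passed only in experiment 2. The mRNA of the target gene Cbfb stood at 92.7, 91.0 and 75.8 CPM in sgControl and 45.8, 39.0 and 35.7 CPM in sgCbfb LP cells of experiment 1. In Phase 1 it stood at 73.4, 81.3 and 44.7 CPM and 44.1, 63.5 and 54.2 CPM, and in experiment 2 at 110.0, 109 and 124 CPM and 48.3, 41.6 and 55.4 CPM. Cbfb thus fell in LP cells in both experiments (-1.09 ± 0.22, adjusted P = 0.0055, and -1.23 ± 0.17, adjusted P = 4.3e-06) but did not pass in Phase 1 (-0.27 ± 0.22, adjusted P = 0.59). Ctcf mRNA fell from 404, 356 and 413 CPM to 330.3, 272 and 314 CPM with sgCTCF (-0.36 ± 0.10, adjusted P = 0.021), and Med12 stood at 6.59, 4.43 and 4.38 CPM in sgControl and 9.61, 3.20 and 8.23 CPM in sgMed12 (0.30 ± 0.35, adjusted P = 0.66). A frameshift need not lower its mRNA, so these levels check the labels only where they fell.

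One library stood apart. The library labelled sgMed12 replicate 2 correlated more closely with the sgControl libraries (mean r 0.976 over genes tested) than with the other sgMed12 libraries (0.966), and the sgMed12 calls are given with all 3 libraries and without this one. In experiment 1 the sgControl Phase 1 replicate 3 agreed least with its own group (0.921, against 0.935 and 0.937). Among marker lists, 8 of 8 Notch-stimulated Phase 1 markers rose from LP to Phase 1 in sgControl cells (3.26% of all genes). Their summed levels were 149.6 to 178.8 CPM in LP and 1127 to 1307 CPM in Phase 1. These sums reached only 362 to 407 CPM in sgCbfb Phase 1 cells. Of 12 myeloid markers, Cd14, Csf3r and Ctsg were at 0 in every library. The list summed to 64.9 to 92.7 CPM in LP and 48.7 to 62.3 CPM in Phase 1 with sgControl, against 494 to 588 and 358 to 388 CPM with sgCbfb. In experiment 2 it summed to 70.9 to 72.1 CPM with sgControl and 725 to 822 CPM with sgCbfb. The 12 OP9 stromal markers summed to 2.1 to 59.1 CPM over all libraries, with Col3a1 and Postn at 0 throughout. Interferon-stimulated genes rose in sgCbfb cells of experiment 2 (17 of 18 tested, and 6.91% of all genes), from 141.0 to 172.5 CPM in sum to 502 to 1377 CPM. With sgCTCF 5 of the 18 rose (6.13% of all genes), to sums of 217 to 253 CPM. With sgMed12 3 rose (2.53%), to 222 to 487 CPM, so that neither group overlapped sgControl. The myeloid sums were 93.8 to 127.5 CPM with sgCTCF and 90.4 to 107.0 CPM with sgMed12, also above sgControl. Gene by gene, 1 of the 8 myeloid markers tested rose and 2 fell with sgCTCF (6.13% and 4.2% of all genes). With sgMed12, 1 rose and 0 fell (2.53% and 4.7%). The median was -0.68 with sgCTCF and 0.42 with sgMed12. With sgCbfb, 5 of 8 rose in experiment 2 (6.91%). In experiment 1, 3 of 7 rose with sgCbfb in LP cells (1.76%) and 3 of 7 in Phase 1 (3.37%). In these sgCbfb settings 0 fell, and Mrc1 and F13a1 had the smallest P. The part of these markers in the member results was not tested.

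Over the 12 comparisons, 59 member calls passed limma's moderated test at a Benjamini-Hochberg adjusted P under 0.05, shared by 18 of the 34 members. Changes are differences of log2(CPM + 1), given with their standard error and n = 3 libraries a group, a scale on which the changes of low genes are understated. From LP to Phase 1 with sgControl, 0 members rose, where 3.26% of all 13239 genes tested did, and 3 fell (Bbc3, Pmaip1 and Xpc), where 3.23% of all genes did; the median change of the 31 members tested was -0.44, against -0.07 over all genes. With sgCbfb the same step raised 0 members (1.28% of all genes) and lowered Xpc alone (0.959%), with a median of -0.002 against -0.015 over all genes. In LP cells of experiment 1, sgCbfb raised 1 member (Cdkn1a; 1.76% of all genes) and lowered 1 (Xpc; 1.09%), with medians of -0.06 and 0.0. In Phase 1 cells, sgCbfb raised 6 members (Pmaip1, Cdkn1a, Sesn1, Ccng1, Bbc3 and Plk2; 3.37% of all genes) and lowered 1 (Perp; 2.6%), with medians of 0.51 and 0.06. The effect of sgCbfb differed between the stages for 1 member, Pmaip1, which was called higher (0.612% of all genes, with 0 members and 0.657% of all genes called lower).

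In experiment 2, sgCbfb raised 3 members (Cdkn1a, Sesn1 and Polk; 6.91% of all 13177 genes tested) and lowered Xpc (5.57%), with a median of 0.02 against -0.01 over all genes. The guide against CTCF raised 9 members (Trp53inp1, Zmat3, Ccng1, Fas, Btg2, Ercc5, Cdkn1a, Bbc3 and Mdm2; 6.13% of all genes) and lowered Xpc (4.2%), and 28 of the 33 members had a positive change, with a median of 0.46 against -0.02. With sgMed12, 1 member rose (Bax; 2.53% of all genes) and 0 fell (4.7%), with a median of 0.26 against -0.02. The mean of the 3 cutting guides exceeded sgControl for 2 members (Cdkn1a and Ccng1; 2.86% of all genes) and lay below it for 1 (Xpc; 2.5%), with a median of 0.25 against -0.01. The 3 guides were compared with the same sgControl libraries, and their changes are therefore set side by side only. Of the 59 calls, 29 held when each library was left out in turn and 30 did not, and 0 reversed.

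**Figure D1:**
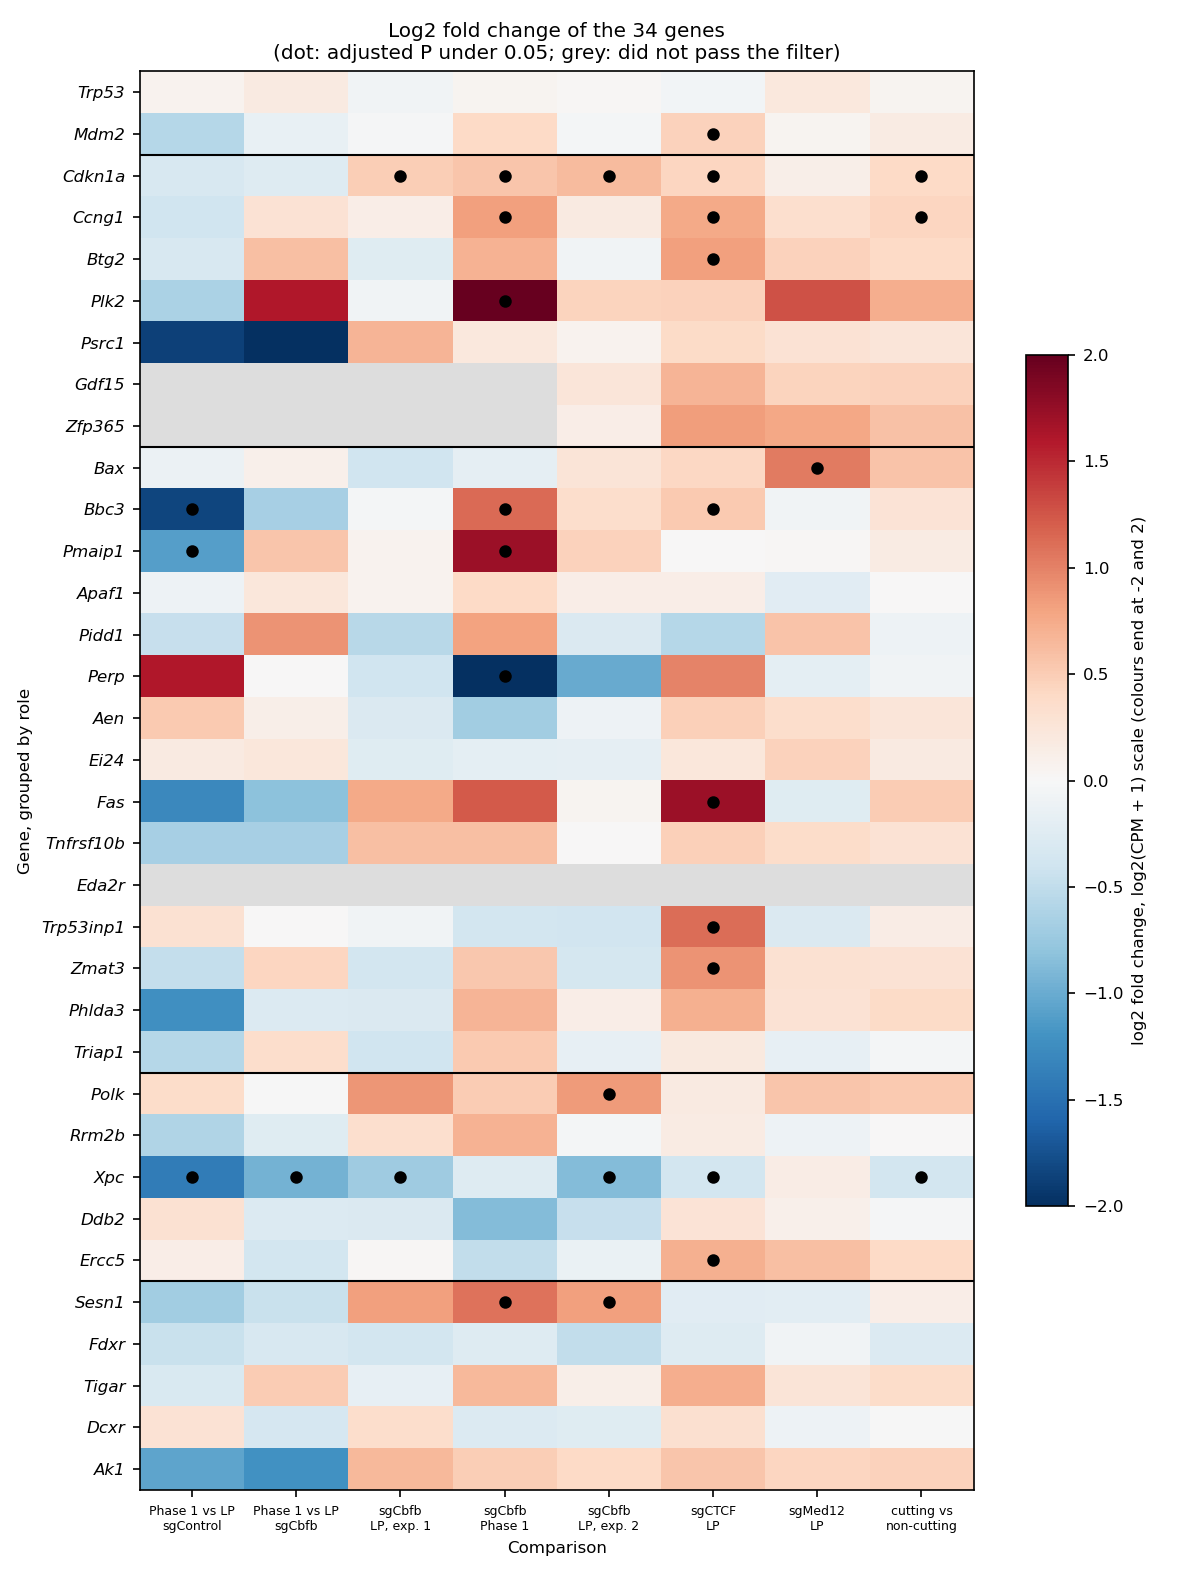
Changes of all members (rows, grey where not tested) between stages, with each guide against sgControl and for cutting against non-cutting guides (columns). Colours give the difference of log2(CPM + 1) from limma with 3 libraries a group, with a mark where the adjusted P is under 0.05. The interaction and the comparisons between cutting guides are not drawn. The sgCTCF column holds 10 marks and the sgMed12 column 1, while most members of the LP sgCbfb columns carry none.

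Trp53, the gene that codes for p53, gave no call. Its mRNA ranged from 53.7 to 78.4 CPM over the 12 libraries of experiment 1 and from 86.9 to 119 CPM in experiment 2, and its changes spanned -0.08 to 0.27 over the 12 comparisons, with no adjusted P below 0.12. The 95% interval for sgCTCF against sgControl was -0.31 to 0.20 and that for the cutting guides -0.15 to 0.27. Since p53 is controlled mainly at the level of its protein, which was not measured, the level of Trp53 mRNA does not report on p53 activity.

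Mdm2, the ubiquitin ligase that p53 induces and that degrades p53, rose only with sgCTCF among the comparisons with sgControl that passed. It stood at 55.1, 51.4 and 59.9 CPM in the sgControl libraries of experiment 2 and at 85.9, 83.8 and 61.7 CPM with sgCTCF, without overlap (0.46 ± 0.14, adjusted P = 0.043). With sgCbfb it stood at 58.1, 58.7 and 46.4 CPM and with sgMed12 at 55.7, 54.0 and 63.9 CPM, both overlapping sgControl. This sgCTCF call rested on single libraries and settings: Mdm2 missed the threshold without LP sgCTCF replicate 1 or 2 or LP sgControl replicate 1, 2 or 3 (0.066 to 0.22), with no filter on low values (0.077), with unmoderated variances (0.12) and with a pseudocount of 0.1 (0.05). In experiment 1, Mdm2 measured 59.6, 68.7 and 60.4 CPM in sgControl LP cells, 44.5, 36.1 and 46.2 CPM in sgControl Phase 1 cells and 66.1, 52.2 and 50.1 CPM in sgCbfb Phase 1 cells. The 3 Phase 1 sgControl libraries lay below all 3 LP libraries and all 3 sgCbfb libraries, but neither difference passed (-0.57 ± 0.20, adjusted P = 0.099, and 0.40 ± 0.20, adjusted P = 0.3).

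Cdkn1a encodes p21, the inhibitor of cyclin-dependent kinases through which p53 stops the cell cycle, and lies on chromosome 17 (GRCm38, 29090976 to 29100727, plus strand). In LP cells of experiment 1 it stood at 371, 429.7 and 401 CPM with sgControl and 566, 572 and 553 CPM with sgCbfb, and in Phase 1 at 353, 335 and 274 CPM and 506, 469 and 436 CPM. In experiment 2 it stood at 444, 378 and 369 CPM with sgControl and 631, 681 and 544 CPM with sgCbfb. In each of these 3 settings every sgCbfb library lay above every sgControl library. The rises were 0.49 ± 0.12 (adjusted P = 0.017) in LP cells and 0.56 ± 0.12 (adjusted P = 0.0036) in Phase 1 cells of experiment 1, and 0.64 ± 0.12 (adjusted P = 0.00059) in experiment 2, which are ratios of means of 1.41, 1.47 and 1.56. The first of these was lost without LP sgCbfb replicate 1, 2 or 3 or LP sgControl replicate 1 or 3 (0.058 to 0.089) and with unmoderated variances (0.056), while those in Phase 1 and in experiment 2 held without any 1 library.

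With the other guides Cdkn1a stood at 661, 479.5 and 473 CPM (sgCTCF) and 398, 487 and 404 CPM (sgMed12). The sgCTCF libraries lay above all sgControl libraries (0.42 ± 0.12, adjusted P = 0.027), with replicate 1 well above the other 2, and the sgMed12 libraries overlapped sgControl (0.11 ± 0.12, 95% interval -0.14 to 0.37, adjusted P = 0.63, and 0.02 ± 0.11, adjusted P = 0.93 without the library labelled sgMed12 replicate 2). The sgCTCF call was lost without LP sgCTCF replicate 1 or LP sgControl replicate 2 or 3 (0.096 to 0.25), with no filter on low values (0.092) and with unmoderated variances (0.17). Cdkn1a was lower with sgMed12 than with sgCbfb (-0.53 ± 0.12, adjusted P = 0.0038), a call lost with unmoderated variances (0.072). Exons of an opposite-strand gene, AC167363.2, overlap 273 bases of Cdkn1a exons, and whether reads were counted by strand is not given in the sources used here. Among 20 cell cycle genes that p21 is known to lower, 0 rose and 0 fell with sgCbfb in LP cells of experiment 1, where 1.09% of all genes fell. In Phase 1, 1 rose and 0 fell with sgCbfb (3.37% and 2.6% of all genes). There 16 of the 20 had a positive change and the median was 0.39, against 0.06 over all genes. From LP to Phase 1 with sgControl, 0 rose and 5 fell (3.26% and 3.23%), with a median of -0.56, against -0.07. With sgCbfb that step raised 0 and lowered 0 (1.28% and 0.959%), with a median of 0.096, against -0.015. In experiment 2, 1 fell with sgCbfb (5.57% of all genes), 4 fell with sgCTCF (4.2%; median -0.21, against -0.02 over all genes) and 7 fell with sgMed12 (4.7%; median -0.40), the guide with which Cdkn1a did not pass. Without the library labelled sgMed12 replicate 2, 12 fell with sgMed12, where 13.5% of all genes did.

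**Figure D2:**
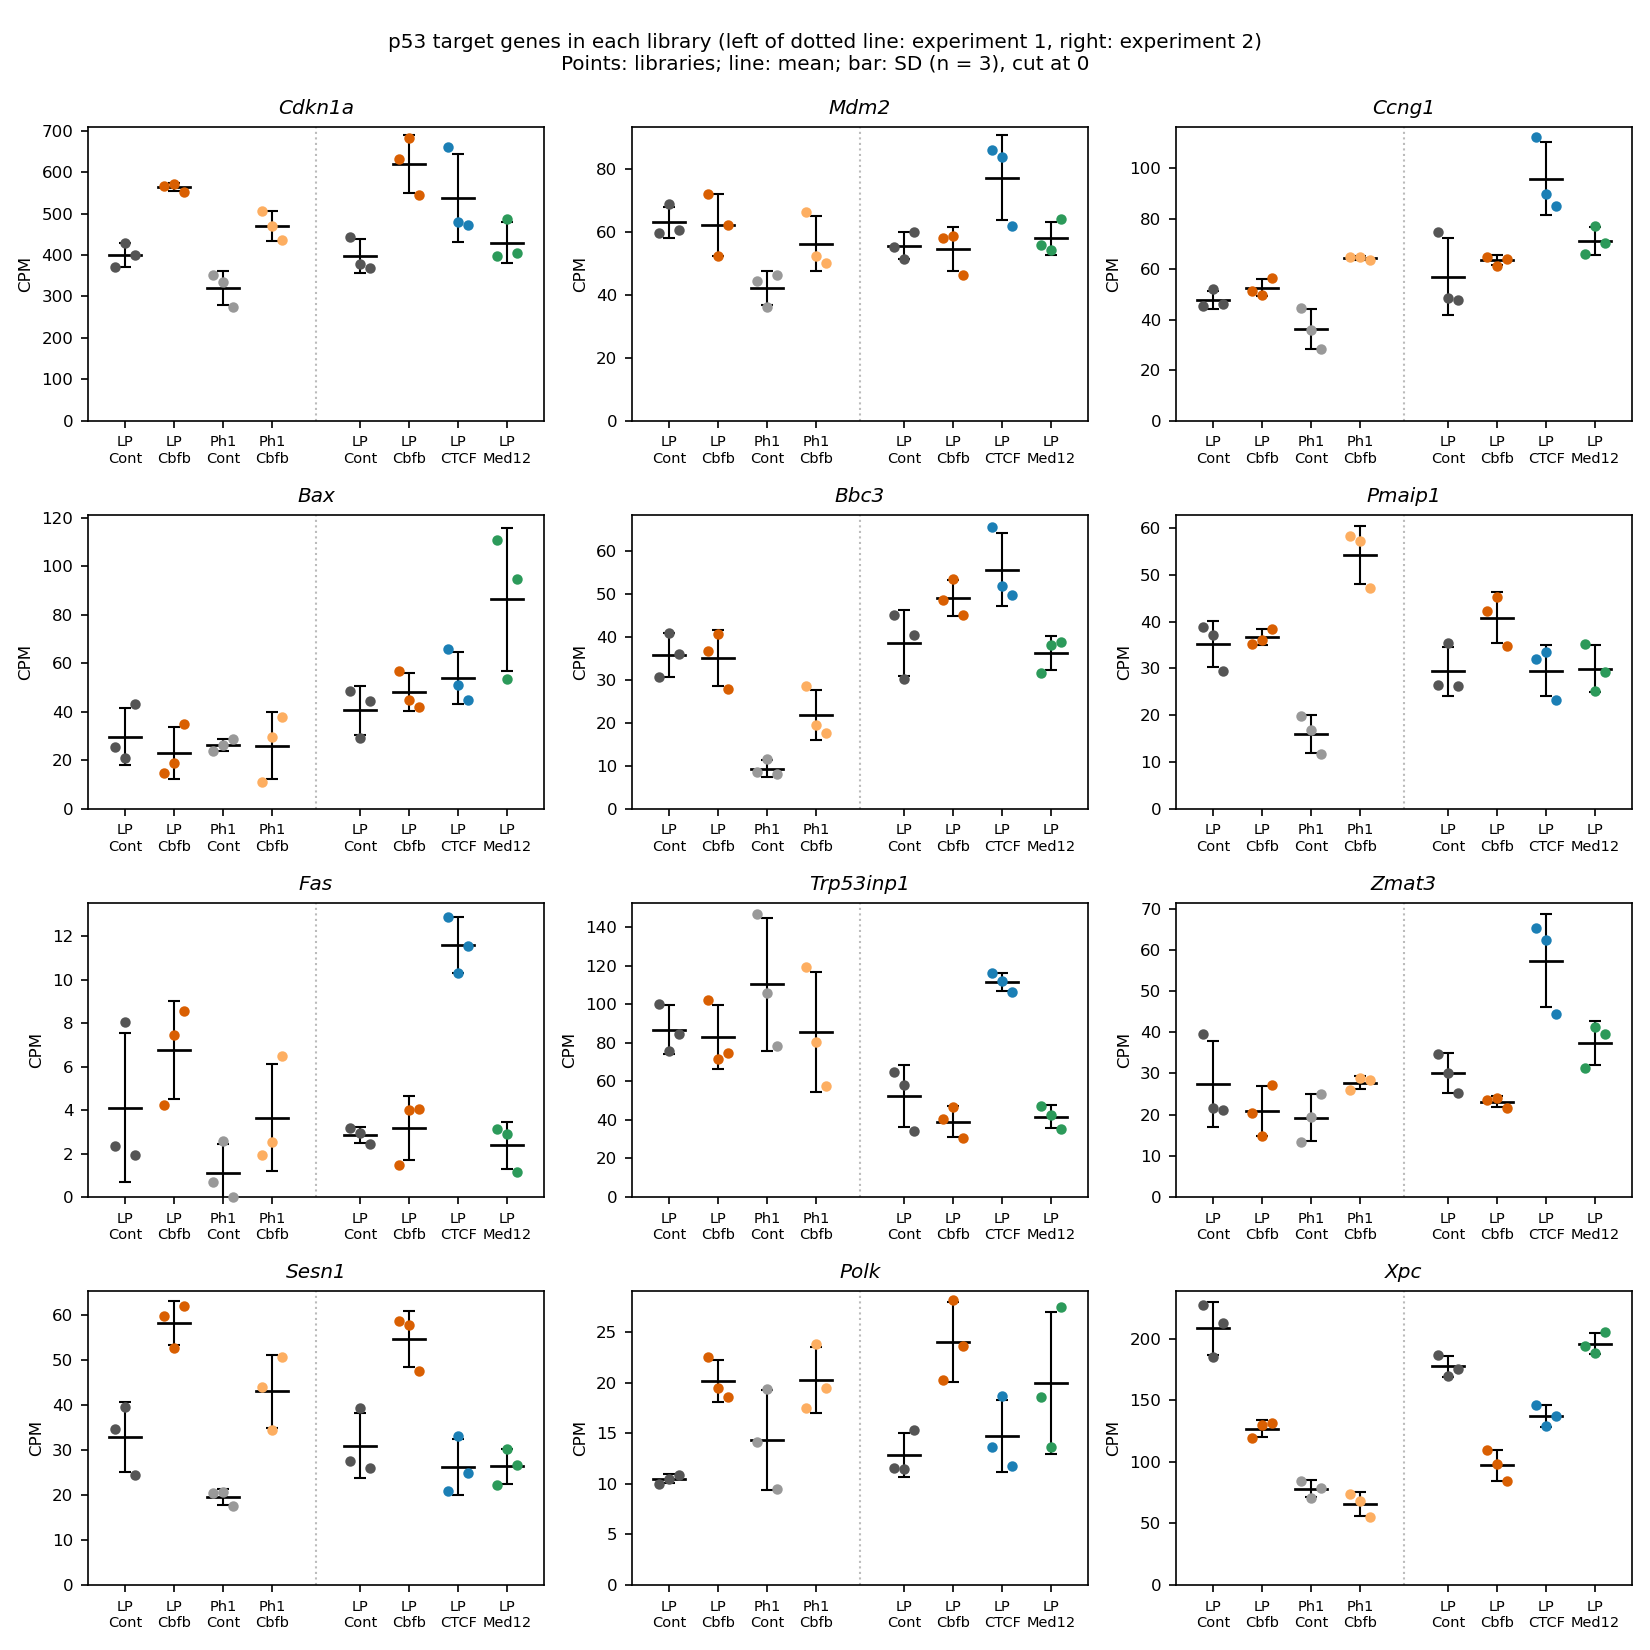
Level of 12 members (CPM, linear axes from 0) in each library, grouped by stage and guide with experiment 1 left and experiment 2 right of the dotted line; points are libraries, lines means and bars SDs (n = 3). Cdkn1a and Sesn1 are higher with sgCbfb in each experiment, Fas, Trp53inp1 and Zmat3 stand highest with sgCTCF within experiment 2, and Bax with sgMed12.

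Ccng1, which encodes the p53-induced cyclin G1, rose with sgCbfb in Phase 1 and with sgCTCF. In Phase 1 it stood at 44.5, 36.1 and 28.6 CPM with sgControl and 64.8, 64.7 and 63.6 CPM with sgCbfb, and in experiment 2 at 74.6, 48.4 and 48.0 CPM with sgControl and 112, 89.9 and 85.1 CPM with sgCTCF. Neither pair of groups overlapped. The rises were 0.83 ± 0.20 (adjusted P = 0.013) and 0.76 ± 0.15 (adjusted P = 0.0014), of which the sgCTCF rise held without any 1 library and the Phase 1 rise was lost without Phase 1 sgCbfb replicate 1, 2 or 3 or Phase 1 sgControl replicate 3 (0.051 to 0.056) and in a fit of the groups compared alone (0.053). In LP cells sgCbfb gave 0.13 ± 0.20 (experiment 1, adjusted P = 0.89) and 0.18 ± 0.15 (experiment 2, adjusted P = 0.51), and sgMed12 gave 0.34 ± 0.15 (adjusted P = 0.17, and 0.28 ± 0.15, adjusted P = 0.2 without the library labelled sgMed12 replicate 2), with libraries at 65.8, 77.0 and 70.4 CPM. The sgControl replicate 1 was the highest of its group, and the sgMed12 difference passed without it (0.55, adjusted P = 0.044).

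Btg2, an antiproliferative gene that p53 induces, stood at 13.7, 15.4 and 13.9 CPM with sgControl and 27.6, 24.2 and 25.9 CPM with sgCTCF. All 3 sgCTCF libraries lay above the sgControl libraries (0.81 ± 0.22, adjusted P = 0.015), and the call was lost without LP sgCTCF replicate 1 or LP sgControl replicate 1 or 3 (0.057 to 0.073) and with unmoderated variances (0.057). With sgCbfb and sgMed12 its libraries read 10.7, 16.4 and 14.4 CPM and 26.0, 20.6 and 14.8 CPM and overlapped sgControl. Plk2, which encodes a stress-responsive polo-like kinase, was near the limit of detection. In Phase 1 it had 0, 0 and 0 reads in the sgControl libraries and 7, 10 and 2 reads in the sgCbfb libraries, or at least 1.92-fold more against the 2.08 CPM that a group of 0 reads allows per library (3 reads, adjusted P = 0.034). This call was lost without Phase 1 sgCbfb replicate 1 or 2 or Phase 1 sgControl replicate 1, 2 or 3 (0.056 to 0.18), in edgeR (0.07), with unmoderated variances (0.098), in a fit of the groups compared alone (0.075) and with a pseudocount of 0.1 (0.059). The remaining arrest genes gave no call. Psrc1, which encodes a spindle protein, ranged from 0 to 12.04 CPM in experiment 1. Gdf15, a stress cytokine, ranged from 0 to 2.68 CPM in experiment 2, and Zfp365 ranged from 0 to 1.95 CPM in experiment 2.

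Bbc3 and Pmaip1 encode the BH3-only proteins PUMA and NOXA, which antagonize the BCL2 family and start mitochondrial apoptosis. Both fell with Notch stimulation in sgControl cells, and both were higher with sgCbfb in Phase 1. Bbc3 stood at 30.7, 40.9 and 36.0 CPM in LP and 8.47, 11.6 and 8.07 CPM in Phase 1 with sgControl, and at 36.7, 40.7 and 27.8 CPM and 28.5, 19.5 and 17.7 CPM with sgCbfb. The sgControl Phase 1 libraries were the lowest of the 12, below every library of the other 3 groups. The fall from LP to Phase 1 was -1.83 ± 0.30 (adjusted P = 0.00028) with sgControl and -0.67 ± 0.30 (adjusted P = 0.36) with sgCbfb. For sgCbfb against sgControl the difference was 1.13 ± 0.30 (adjusted P = 0.023) in Phase 1 and -0.04 ± 0.30 (adjusted P = 0.99) in LP. The Phase 1 call was lost without Phase 1 sgCbfb replicate 1 or 2 or Phase 1 sgControl replicate 1 (0.053 to 0.15) and in a fit of the groups compared alone (0.12), and the difference between the stages did not pass (1.17 ± 0.42, adjusted P = 0.27).

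Pmaip1 stood at 39.0, 37.1 and 29.5 CPM in LP and 19.8, 16.8 and 11.7 CPM in Phase 1 with sgControl, and at 35.3, 36.1 and 38.5 CPM and 58.4, 57.2 and 47.1 CPM with sgCbfb. Without sgCbfb the level fell on Notch stimulation, and with it the 3 Phase 1 libraries were the highest of the 12. The fall in sgControl was -1.10 ± 0.25 (adjusted P = 0.0069), which was lost in a fit of the groups compared alone (0.068), and the change in sgCbfb was 0.55 ± 0.25 (adjusted P = 0.37). In Phase 1 sgCbfb against sgControl gave 1.72 ± 0.25 (adjusted P = 9e-05), a ratio of means of 3.37, and in LP 0.07 ± 0.25 (adjusted P = 0.97). The difference between these effects was 1.65 ± 0.35 (adjusted P = 0.016), the only member call of the interaction, and it was lost without LP sgControl replicate 1 or 2 or Phase 1 sgCbfb replicate 1 or 2 (0.052 to 0.059). In experiment 2 the LP levels were 26.4, 35.4 and 26.3 CPM with sgControl and 42.3, 45.3 and 34.8 CPM with sgCbfb (0.47 ± 0.18, adjusted P = 0.1). Beside these results stand the Notch markers given above, which were lower in sgCbfb than in sgControl Phase 1 cells, and Phase 1 cells with sgCbfb also differed in their myeloid markers. In bulk RNA, fewer cells of a type and less RNA per cell cannot be told apart.

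**Figure D3:**
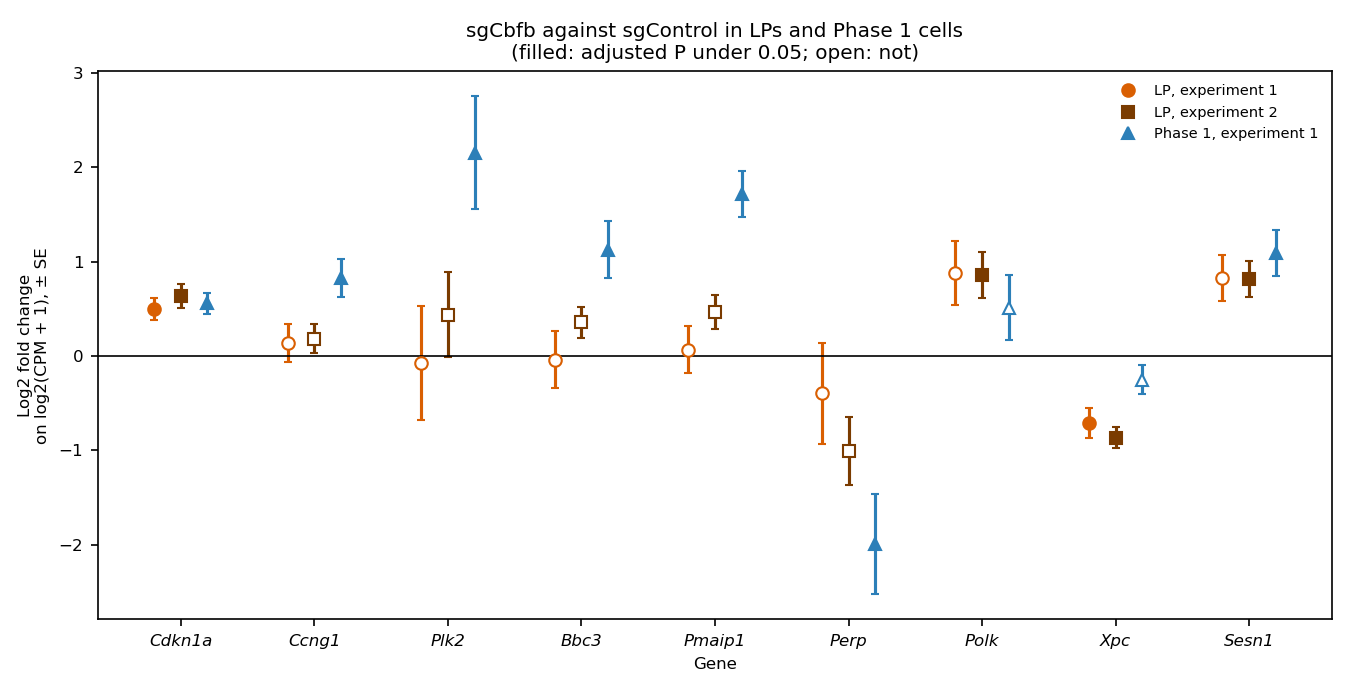
Effect of sgCbfb in LP cells and Phase 1 cells of experiment 1 and in LP cells of experiment 2 (difference of log2(CPM + 1) from sgControl, with standard errors, n = 3 libraries a group). Only the members that passed in at least 1 of these settings are drawn, with filled points where the adjusted P is under 0.05. Pmaip1 lies at 0.07, 1.72 and 0.47 in these settings and Xpc at -0.71, -0.25 and -0.87.

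In experiment 2, Bbc3 stood at 45.1, 30.1 and 40.4 CPM with sgControl, 48.6, 53.4 and 45.1 CPM with sgCbfb, 65.5, 51.8 and 49.7 CPM with sgCTCF and 31.6, 38.1 and 38.9 CPM with sgMed12. The sgCTCF libraries were above all sgControl libraries (0.53 ± 0.16, adjusted P = 0.035), and the call was lost without LP sgCTCF replicate 1 or 2 or LP sgControl replicate 2 or 3 (0.067 to 0.22), with no filter on low values (0.067) and with unmoderated variances (0.12). Pmaip1 did not follow it with sgCTCF (0.01 ± 0.18, 95% interval -0.37 to 0.38, adjusted P = 0.99).

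Bax, the pore-forming effector of mitochondrial apoptosis, was the single member called with sgMed12. It stood at 48.5, 29.2 and 44.3 CPM with sgControl and 111, 53.5 and 94.8 CPM with sgMed12. The library labelled sgMed12 replicate 2 was the lowest of its group, though still above every sgControl library. The rise was 1.03 ± 0.21 (adjusted P = 0.0064) with that library and 1.34 ± 0.18, adjusted P = 2.3e-06 without it. Other libraries decided the call: it was lost without LP sgControl replicate 2 or LP sgMed12 replicate 3 (0.052 to 0.055) and with unmoderated variances (0.14). With sgCbfb and sgCTCF, Bax measured 56.9, 45.0 and 42.1 CPM and 65.7, 51.2 and 44.8 CPM, groups that overlapped sgControl (0.25 ± 0.21 and 0.41 ± 0.21), and in experiment 1 it ranged from 11.02 to 43.0 CPM with no adjusted P below 0.81. Exons of Gm45808 on the same strand overlap 192 bases of Bax exons, so that reads there may belong to either gene.

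Without the library labelled sgMed12 replicate 2, 3 further members passed with sgMed12. In that fit 4 members rose, where 8.13% of all genes did, and 0 fell, where 13.5% did, so that calls over all genes rose as well. These were the nucleotide excision repair nuclease gene Ercc5 (0.73 ± 0.21, adjusted P = 0.013), Polk (0.79 ± 0.24, adjusted P = 0.018) and Plk2 (1.51 ± 0.49, adjusted P = 0.025). With all 3 libraries they gave 0.59 ± 0.20 (adjusted P = 0.069), 0.56 ± 0.24 (adjusted P = 0.16) and 1.28 ± 0.45 (adjusted P = 0.083).

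Fas, the death receptor, Trp53inp1, which encodes a nuclear protein that promotes p53 phosphorylation, and Zmat3, which encodes an RNA-binding protein, all rose with sgCTCF. Fas stood at 3.16, 2.95 and 2.44 CPM with sgControl and 12.9, 10.3 and 11.6 CPM with sgCTCF, and at 1.49, 4.02 and 4.03 CPM and 3.11, 2.90 and 1.14 CPM with sgCbfb and sgMed12. Trp53inp1 stood at 64.9, 58.2 and 34.3 CPM with sgControl and 116, 112 and 107 CPM with sgCTCF, and at 40.2, 46.7 and 30.5 CPM and 47.2, 42.7 and 35.2 CPM with the other guides. Zmat3 stood at 34.8, 30.1 and 25.3 CPM with sgControl and 65.2, 62.4 and 44.4 CPM with sgCTCF, and at 23.6, 24.1 and 21.7 CPM and 31.4, 41.3 and 39.5 CPM with sgCbfb and sgMed12. For all 3 genes, each sgCTCF library exceeded each of the 9 other libraries of the experiment. The rises over sgControl were 1.71 ± 0.35 for Fas (adjusted P = 0.0016), 1.12 ± 0.19 for Trp53inp1 (adjusted P = 0.00019) and 0.90 ± 0.17 for Zmat3 (adjusted P = 0.00096), with ratios of means of 4.06, 2.13 and 1.91. These 3 calls, with that of Ccng1, held without any 1 library. In experiment 1, where no sgCTCF cells were measured, none of the 3 gave a call, and Trp53inp1 ranged from 57.8 to 147 CPM.

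Perp, which encodes a desmosomal membrane protein that p53 induces during apoptosis, had few reads in either experiment. It had 3, 3 and 8 reads in the sgControl Phase 1 libraries and 0, 0 and 0 in the sgCbfb Phase 1 libraries, or at least 1.77-fold fewer against a floor of 1.87 CPM (adjusted P = 0.026). That call was lost without Phase 1 sgCbfb replicate 1, 2 or 3 or Phase 1 sgControl replicate 3 (0.086 to 0.18), in edgeR (0.086), in a fit of the groups compared alone (0.083) and with a pseudocount of 0.1 (0.05). In experiment 2 it had 5, 2 and 5 reads with sgControl, 0, 0 and 0 with sgCbfb, 17, 11 and 8 with sgCTCF and 3, 3 and 2 with sgMed12. Only the difference between sgCTCF and sgCbfb (adjusted P = 0.00015; at least 3.86-fold higher) and that between sgMed12 and sgCTCF (-1.19 ± 0.36, adjusted P = 0.021) passed there.

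Other apoptosis and survival genes gave no call against sgControl or between stages. Apaf1, which encodes the apoptosome scaffold, ranged from 12.2 to 36.6 CPM in experiment 2, Triap1, which encodes an inhibitor of apoptosome assembly, from 32.8 to 57.3 CPM, the AKT inhibitor gene Phlda3 from 5.61 to 16.9 CPM, and the nuclease gene Aen from 5.36 to 12.5 CPM. The death receptor gene Tnfrsf10b stood between 0.282 and 3.62 CPM there, and Eda2r, another receptor gene of that family, had 0 reads in all 12 libraries of experiment 1 and in 8 of 12 of experiment 2. Their smallest adjusted P over all comparisons was 0.12, in Aen, Phlda3 and Triap1.

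Xpc, which encodes the damage sensor that starts global nucleotide excision repair and which p53 is known to raise, fell in 6 of its 9 calls. In experiment 1 it stood at 228, 185 and 213 CPM in LP and 84.7, 71.0 and 78.5 CPM in Phase 1 with sgControl, and at 119, 129.6 and 132 CPM and 73.9, 67.9 and 55.4 CPM with sgCbfb. The sgControl LP libraries were the highest 3 of the 12, the sgCbfb LP libraries came next, and all 6 Phase 1 libraries lay below them. The fall from LP to Phase 1 was -1.41 ± 0.16 (adjusted P = 2e-06) with sgControl and -0.95 ± 0.16 (adjusted P = 0.00079) with sgCbfb, and both held without any 1 library. In LP, sgCbfb changed Xpc by -0.71 ± 0.16 (adjusted P = 0.01), a call that was lost without LP sgCbfb replicate 1 or LP sgControl replicate 1 or 3 (0.055 to 0.069), and in Phase 1 the difference was -0.25 ± 0.16 (adjusted P = 0.43).

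In experiment 2, Xpc stood at 187, 170.1 and 176 CPM with sgControl, 109, 98.4 and 84.4 CPM with sgCbfb, 146, 129 and 137 CPM with sgCTCF and 194, 189 and 205 CPM with sgMed12. These 4 groups did not overlap, and their order was sgMed12, sgControl, sgCTCF and sgCbfb. The change with sgCbfb was -0.87 ± 0.11 (adjusted P = 1.7e-06), that with sgCTCF -0.37 ± 0.11 (adjusted P = 0.029) and that with sgMed12 0.14 ± 0.11 (adjusted P = 0.46, and 0.17 ± 0.11, adjusted P = 0.29 without the library labelled sgMed12 replicate 2), of which the last did not pass. The sgCbfb call held without any 1 library, and the sgCTCF call was lost without LP sgCTCF replicate 2 or 3 or LP sgControl replicate 1 or 3 (0.081 to 0.15) and with unmoderated variances (0.057).

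Polk, which encodes the translesion polymerase kappa, rose with sgCbfb in experiment 2, where it stood at 11.6, 11.5 and 15.3 CPM with sgControl and 20.3, 28.2 and 23.7 CPM with sgCbfb. The groups did not overlap (0.86 ± 0.24, adjusted P = 0.017), and the call was lost without LP sgCbfb replicate 2 or 3 or LP sgControl replicate 1 or 2 (0.051 to 0.11) and with unmoderated variances (0.098). In LP cells of experiment 1 the libraries read 10.0, 10.53 and 10.9 CPM and 22.6, 19.5 and 18.6 CPM, also without overlap, but the difference of 0.88 ± 0.34 did not pass (adjusted P = 0.25). Ercc5 stood at 14.8, 19.5 and 16.3 CPM with sgControl and 31.1, 28.1 and 25.4 CPM with sgCTCF. It was higher in every sgCTCF library (0.72 ± 0.20, adjusted P = 0.021), and this was lost without LP sgCTCF replicate 1 or 2 or LP sgControl replicate 1 or 3 (0.072 to 0.11) and with unmoderated variances (0.056). Rrm2b, the p53-induced ribonucleotide reductase subunit, and Ddb2, which encodes a damage-binding protein, gave no call, with ranges of 7.38 to 12.7 CPM and 6.17 to 16.7 CPM in experiment 2. Opposite-strand exons of Gm49085 and Acp2 overlap those of Rrm2b and Ddb2 by 734 and 652 bases.

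Sesn1, which encodes a stress-induced sestrin that restrains mTORC1, rose with sgCbfb but with neither of the other guides. It stood at 27.7, 39.3 and 26.1 CPM with sgControl and 58.7, 57.9 and 47.6 CPM with sgCbfb in experiment 2, and at 20.9, 33.1 and 25.0 CPM and 22.3, 30.2 and 26.7 CPM with sgCTCF and sgMed12. The sgCbfb libraries stood above the other 9, and the rise was 0.82 ± 0.19 (adjusted P = 0.0034; lost with unmoderated variances (0.054)), against -0.23 ± 0.19 with sgCTCF and -0.21 ± 0.19 with sgMed12. Without the library labelled sgMed12 replicate 2 the last was -0.31 ± 0.20, adjusted P = 0.28. In experiment 1 the sgControl and sgCbfb libraries read 34.8, 39.6 and 24.4 CPM and 59.95, 52.8 and 62.1 CPM in LP and 20.47, 20.6 and 17.6 CPM and 44.1, 34.6 and 50.7 CPM in Phase 1, without overlap in either stage. The Phase 1 rise passed (1.09 ± 0.24, adjusted P = 0.0068; lost without Phase 1 sgCbfb replicate 3 (0.058)), and the LP rise did not (0.83 ± 0.24, adjusted P = 0.076). Of the other metabolic members, the ferredoxin reductase gene Fdxr came nearest to a call, with 55.4, 49.3 and 42.9 CPM in sgControl and 36.7, 35.1 and 32.0 CPM in sgCbfb libraries (-0.49 ± 0.18, adjusted P = 0.077). Tigar, which encodes a fructose bisphosphatase, Dcxr, a xylulose reductase gene, and Ak1, an adenylate kinase gene, ranged in experiment 2 from 6.59 to 18.5, 11.3 to 25.0 and 2.44 to 8.59 CPM, with no call.

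The effect of sgCbfb in LP cells was measured in both experiments against separate sgControl libraries. Of 31 members tested in both, 22 (71.0%) changed in the same direction, as did 65.8% of all 12639 genes tested in both. The 2 that passed in experiment 1, Cdkn1a and Xpc, also passed in experiment 2, and the 4 that passed in experiment 2 had the same direction in experiment 1. Beside these stand the interferon-stimulated genes. With sgCbfb, 2 of 17 rose in LP cells of experiment 1 (1.76% of all genes) and 17 of 18 in experiment 2 (6.91%). Their sums in LP cells of experiment 1 overlapped, at 180.6 to 249.8 CPM with sgControl and 171.5 to 300.4 CPM with sgCbfb.

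The question whether cutting guides as a class raise p53 targets was addressed by setting the mean of the 3 cutting guides against sgControl. Cdkn1a (0.39 ± 0.10, adjusted P = 0.021) and Ccng1 (0.43 ± 0.12, adjusted P = 0.041) were higher and Xpc (-0.37 ± 0.09, adjusted P = 0.014) was lower, and 26 of the 33 members had a positive change. These averages covered unlike guides. Cdkn1a changed by 0.64, 0.42 and 0.11 with sgCbfb, sgCTCF and sgMed12, Ccng1 by 0.18, 0.76 and 0.34, and Xpc by -0.87, -0.37 and 0.14. No member passed against sgControl with all 3 guides, and Cdkn1a and Xpc passed with 2 of them. The call of Cdkn1a was lost without LP sgControl replicate 2 or 3 (0.12 to 0.16), with no filter on low values (0.086) and with unmoderated variances (0.18), that of Ccng1 without LP sgCTCF replicate 1 or 2, LP sgCbfb replicate 1, 2 or 3, LP sgControl replicate 2 or 3 or LP sgMed12 replicate 3 (0.055 to 0.29), with no filter on low values (0.1) and with unmoderated variances (0.18), and that of Xpc without LP sgControl replicate 1 or 3 (0.075 to 0.12) and with unmoderated variances (0.052). Without the library labelled sgMed12 replicate 2, 5 members passed, namely Bax (0.67 ± 0.13, adjusted P = 0.00084), Xpc (-0.36 ± 0.08, adjusted P = 0.0031), Cdkn1a (0.36 ± 0.08, adjusted P = 0.0039), Ccng1 (0.41 ± 0.11, adjusted P = 0.015) and Polk (0.61 ± 0.18, adjusted P = 0.023). In that fit 5.62% of all genes were higher and 7.47% lower. With every library, Bax gave 0.57 ± 0.17 (adjusted P = 0.058; 0.014 with a replicate block) and Polk 0.53 ± 0.20 (adjusted P = 0.13).

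**Figure D4:**
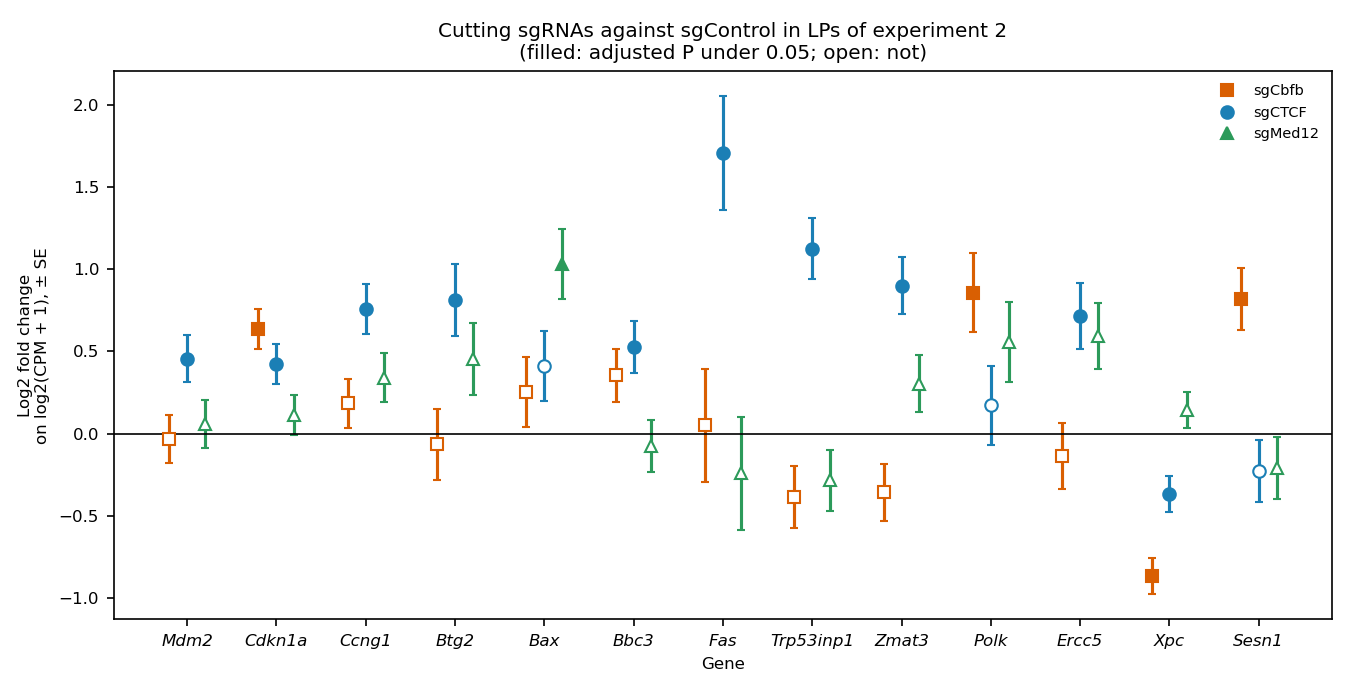
Changes with sgCbfb, sgCTCF and sgMed12 in experiment 2 (difference of log2(CPM + 1) from the shared sgControl libraries, with standard errors, n = 3 libraries a group). Only the members that passed with any of these guides are drawn, with filled points where the adjusted P is under 0.05. Sesn1 is raised by sgCbfb alone, Fas, Trp53inp1 and Zmat3 by sgCTCF alone and Bax by sgMed12 alone among the changes that pass.

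Direct comparisons between the cutting guides, which leave sgControl out, also gave member calls. Against sgCbfb, sgCTCF was higher for 9 members (11.5% of all genes) and lower for 2 (10.9%). Against sgCbfb, sgMed12 was higher for 6 (7.03%) and lower for 2 (9.77%). Against sgCTCF, sgMed12 was higher for 3 (8.09%) and lower for 5 (11.9%). Trp53inp1 separated sgCTCF from sgCbfb (1.51 ± 0.19, adjusted P = 8.1e-07) and from sgMed12 (-1.41 ± 0.19, adjusted P = 8.7e-06), as did Fas (1.66 ± 0.35, adjusted P = 0.00077, and -1.95 ± 0.35, adjusted P = 0.00029) and Zmat3 (1.26 ± 0.17, adjusted P = 4.3e-06, and -0.59 ± 0.17, adjusted P = 0.017). Sesn1 separated sgCbfb from sgCTCF (-1.05 ± 0.19, adjusted P = 0.00015) and from sgMed12 (-1.03 ± 0.19, adjusted P = 0.00029). Xpc differed in all 3 pairs, by 0.50 ± 0.11 (adjusted P = 0.0012) for sgCTCF over sgCbfb, 1.01 ± 0.11 (adjusted P = 1.8e-07) for sgMed12 over sgCbfb and 0.51 ± 0.11 (adjusted P = 0.0017) for sgMed12 over sgCTCF. Of these calls only that of Zmat3 between sgMed12 and sgCTCF depended on a single library, being lost without LP sgCTCF replicate 1 or 2 or LP sgMed12 replicate 1 (0.083 to 0.1) and with unmoderated variances (0.066).

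Between guides, Mdm2 (0.49 ± 0.14, adjusted P = 0.015), Ccng1 (0.57 ± 0.15, adjusted P = 0.0063), Btg2 (0.88 ± 0.22, adjusted P = 0.0039) and Ercc5 (0.85 ± 0.20, adjusted P = 0.0025) were also higher with sgCTCF than with sgCbfb, and Polk was lower (-0.68 ± 0.24, adjusted P = 0.043). Mdm2 lost its call without LP sgCTCF replicate 1 or 2 or LP sgCbfb replicate 3 (0.085 to 0.11) and with unmoderated variances (0.058), Ccng1 without LP sgCTCF replicate 1 (0.065) and with unmoderated variances (0.06) and Polk without LP sgCTCF replicate 1 or 3 or LP sgCbfb replicate 2 or 3 (0.096 to 0.18), with no filter on low values (0.084) and with unmoderated variances (0.13). Pidd1, the gene of a p53-induced death domain protein, passed only here. It stood at 9.23, 12.4 and 14.9 CPM with sgControl, 9.84, 8.04 and 11.1 CPM with sgCbfb, 9.39, 7.52 and 6.47 CPM with sgCTCF and 22.0, 14.2 and 19.0 CPM with sgMed12, where every sgMed12 library lay above every sgCbfb and sgCTCF library. The differences were 0.86 ± 0.25 from sgCbfb (adjusted P = 0.019; lost without LP sgCbfb replicate 2 or LP sgMed12 replicate 1 or 3 (0.068 to 0.097)) and 1.14 ± 0.25 from sgCTCF (adjusted P = 0.0024). Ei24, which encodes an endoplasmic reticulum protein that p53 induces, stood at 19.1, 29.8 and 25.2 CPM with sgCbfb and 35.9, 39.2 and 40.3 CPM with sgMed12 (0.64 ± 0.17, adjusted P = 0.0083; lost without LP sgCbfb replicate 1 (0.072)). Ei24 shares 324 exon bases with Gm26787 on the opposite strand.

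With sgMed12, Bax was higher than with sgCbfb (0.78 ± 0.21, adjusted P = 0.012; lost without LP sgCbfb replicate 3 or LP sgMed12 replicate 1 or 3 (0.061 to 0.076), with no filter on low values (0.051) and with unmoderated variances (0.15)) and than with sgCTCF (0.62 ± 0.21, adjusted P = 0.041; lost without LP sgCTCF replicate 2 or 3 or LP sgMed12 replicate 1 or 3 (0.11 to 0.21), with no filter on low values (0.12), with unmoderated variances (0.22), in a fit of the groups compared alone (0.064) and with a pseudocount of 0.1 (0.054)). Ercc5 (0.73 ± 0.20, adjusted P = 0.012) and Zmat3 (0.66 ± 0.17, adjusted P = 0.0086) were higher than with sgCbfb, and Ercc5 was lost without LP sgCbfb replicate 3 or LP sgMed12 replicate 3 (0.074 to 0.081). Bbc3 was lower than with sgCTCF (-0.60 ± 0.16, adjusted P = 0.0097; lost without LP sgCTCF replicate 1 (0.078) and with unmoderated variances (0.056)), and the call of Perp in that pair was lost without LP sgCTCF replicate 1 or 2 or LP sgMed12 replicate 3 (0.066 to 0.13), in edgeR (0.065) and with a pseudocount of 0.1 (0.11). Without the library labelled sgMed12 replicate 2, every member call between sgMed12 and another cutting guide still passed, and the counts rose to 10 members against sgCbfb and 12 against sgCTCF. In that fit 6 members were higher and 4 lower against sgCbfb, beside 10.6% and 15.6% of all genes, and 3 were higher and 9 lower against sgCTCF, beside 13.1% and 17.7%. The added members were Apaf1 (-0.73, adjusted P = 0.013) and Bbc3 (-0.47, adjusted P = 0.038) against sgCbfb. Against sgCTCF they were Apaf1 (-0.73, adjusted P = 0.012), Ccng1 (-0.47, adjusted P = 0.018), Cdkn1a (-0.41, adjusted P = 0.0066) and Triap1 (-0.53, adjusted P = 0.0084).

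In the fits of all libraries, 16 of the 34 members passed in none of the 12 comparisons (Aen, Ak1, Apaf1, Dcxr, Ddb2, Eda2r, Fdxr, Gdf15, Phlda3, Psrc1, Rrm2b, Tigar, Tnfrsf10b, Triap1, Trp53 and Zfp365), of which Eda2r was tested in none and Gdf15 and Zfp365 in those of experiment 2 alone. A P above the threshold does not show that these genes were equal between groups.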

How the data were processed

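QuantSeq 3′ mRNA libraries (24, in 8 groups of 3) were analysed. The members and gene lists were chosen with earlier results of these data known. Members with adjusted P under 0.05 in a comparison with sgControl or between stages were named with every library's value. The authors used fastp for trimming and STAR for alignment against mm10, and scaled every library to the same total (versions, counting tool and strand use are not given in the sources used here). The deposited values are titled TPM but are CPM: 100.0% of non-zero values under 100 reads were whole multiples of 1 read (within 0.1 read), whatever the gene length. Higher values were left out of this check. One column of the authors' means was not used. The 2 experiments were scaled separately and were tested separately.

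A gene was tested if 3 or more libraries reached 1 CPM, using limma 3.58.1 (R 4.3.3, trend, moderated variances) on log2(CPM + 1), fitting the 12 libraries of an experiment together, two-sided, with Benjamini-Hochberg adjustment over all genes tested. The scripts were tested on simulated data. An exact permutation test of 3 against 3 libraries cannot go below 0.1 and was not used. Alternatives were other pseudocounts, filters, scaling and variance settings, a replicate block, edgeR 4.0.16 on recovered reads, the study's thresholds and leaving out each library. The 95% intervals of changes come from limma's standard errors between libraries, and limits for 0 reads cover counting error only. Gene positions are from GENCODE M21, in which 55141 of 55487 identifiers matched.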

Additional observations from a re-analysis of the deposited data

Results flagged for a closer look

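Pmaip1 was the member whose response to sgCbfb differed between the stages. The sgCbfb effect was 1.72 on the log2(CPM + 1) scale in Phase 1 and 0.07 in LP, a difference of 1.65 ± 0.35 (limma interaction, adjusted P = 0.016, 3 libraries a group), and every sgCbfb Phase 1 library exceeded every sgControl Phase 1 library. Without LP sgControl replicate 1 or 2, or Phase 1 sgCbfb replicate 1 or 2, the adjusted P was 0.052 to 0.059.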

How the results depend on the processing

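Over the alternatives, 0 called members reversed direction. Leaving out 1 library at a time gave 3 to 5 members from LP to Phase 1 with sgControl and 1 to 2 with sgCbfb, 0 to 3 for sgCbfb in LP and 3 to 7 in Phase 1 of experiment 1, 0 to 1 for the interaction, and in experiment 2 3 to 5 for sgCbfb, 4 to 10 for sgCTCF, 0 to 4 for sgMed12, 0 to 5 for the cutting guides, 9 to 13 for sgCTCF against sgCbfb, 6 to 10 for sgMed12 against sgCbfb and 5 to 12 for sgMed12 against sgCTCF. Under the study's thresholds the counts were 0 (LP to Phase 1 with sgCbfb, sgCbfb in LP of both experiments, cutting guides), 3 (sgCbfb in Phase 1), 2 (sgCTCF), 4 (sgCTCF against sgCbfb), 2 (sgMed12 against sgCbfb) and 3 (sgMed12 against sgCTCF). These thresholds ask for both a larger change and a higher mean than the main rule. Unmoderated variances gave 1 for sgCbfb in LP of experiment 1, 5 for sgCTCF, 0 for sgMed12, 0 for the cutting guides and 5 for sgMed12 against sgCTCF. Fitting only the groups compared gave 2 from LP to Phase 1 with sgCbfb and 3 for sgCbfb in Phase 1. A pseudocount of 5 gave 2 from LP to Phase 1 with sgCbfb, edgeR gave 2 with sgMed12, and no filter on low values gave 1 for the cutting guides. The cause was not tested for these last settings. The remaining counts stayed within 1.5 times their main value. Calls over all genes can move with the setting too. Without sgMed12 replicate 2, 8.13% of all genes rose and 13.5% fell with sgMed12, against 2.53% and 4.7% with every library. The shares over all genes are not given here for the other settings, so these counts do not show a change particular to the members.

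The replicate numbers shared by the groups were not used to pair the libraries, since no source says that a number marks a shared batch. The deviations of same-numbered libraries correlated at -0.011 to 0.102 (median 0.003) in experiment 1 and -0.063 to 0.111 (median 0.041) in experiment 2. Those of differently numbered libraries overlapped them, at -0.095 to 0.05 (median -0.006) and -0.108 to 0.086 (median -0.017). In each experiment 8 of 12 libraries were closest to their own number, a hint from the data that numbers may share something. With a replicate block all 59 calls were kept, and Bax (cutting guides, 0.57, adjusted P = 0.014) and Ccng1 (sgMed12 against sgCTCF, -0.42, adjusted P = 0.042) were added. Depth limited the low members of experiment 1, among them Eda2r, Gdf15 and Zfp365, which were not tested, and Tnfrsf10b, Plk2, Perp and Fas.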

Other observations

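Lists of genes around the p53 pathway, none of them members, gave the following values in limma with Benjamini-Hochberg adjustment. Of 16 further p53 targets tested, 3 rose and 0 fell with sgCTCF (median 0.27, against -0.02 over all genes), 2 rose and 3 fell with sgCbfb in experiment 2 (median -0.01) and 1 rose and 1 fell with sgMed12 (median -0.03; 2 and 2 without the library labelled sgMed12 replicate 2). Over all genes 6.13% rose and 4.2% fell with sgCTCF, 6.91% and 5.57% with sgCbfb and 2.53% and 4.7% with sgMed12. Without the library labelled sgMed12 replicate 2, 8.13% of all genes rose and 13.5% fell with sgMed12. In experiment 1, 0 rose and 1 fell with sgCbfb in LP and likewise in Phase 1 (1.76% and 1.09% of all genes in LP, 3.37% and 2.6% in Phase 1). The 2 with the smallest adjusted P with sgCTCF were Gadd45a, a DNA damage-inducible gene (1.44 ± 0.32, adjusted P = 0.0036), and Steap3, a metalloreductase gene (0.79 ± 0.19, adjusted P = 0.0059).

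Of 15 p53 regulators tested, 2 rose and 2 fell with sgCbfb in experiment 2 (6.91% and 5.57% of all genes). With sgCTCF 1 rose and 2 fell (6.13% and 4.2%), and with sgMed12 0 rose and 0 fell (2.53% and 4.7%). Without the library labelled sgMed12 replicate 2, 2 rose and 1 fell with sgMed12 (8.13% and 13.5%). In experiment 1, 0 rose and 0 fell with sgCbfb in LP (1.76% and 1.09% of all genes), and 1 rose and 0 fell in Phase 1 (3.37% and 2.6%). From LP to Phase 1 with sgControl, 1 rose and 0 fell (3.26% and 3.23%). Those with the smallest adjusted P in their comparison included Cdkn2a, the locus of the Mdm2 antagonist p19Arf and of p16Ink4a, whose transcripts a 3′ tag cannot separate. It rose with sgCbfb in Phase 1 (2.67 ± 0.59, adjusted P = 0.0065) and in experiment 2 (1.40 ± 0.25, adjusted P = 0.00019). It stood at 7.06, 4.52 and 0 CPM with sgControl and 17.5, 22.6 and 25.3 CPM with sgCbfb in Phase 1, and at 12.9, 8.56 and 10.7 CPM and 23.3, 38.1 and 29.2 CPM in experiment 2. Atm, the kinase gene of the break response, rose from LP to Phase 1 with sgControl (0.64 ± 0.16, adjusted P = 0.017).

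Of 17 apoptosis partners tested in experiment 2, 4 rose and 0 fell with sgCTCF (6.13% and 4.2% of all genes). With sgCbfb 2 rose and 2 fell (6.91% and 5.57%), and with sgMed12 0 rose and 2 fell (2.53% and 4.7%). The medians were 0.17, -0.05 and 0.04, against -0.02, -0.01 and -0.02 over all genes. Of 16 tested in experiment 1, 0 rose and 2 fell from LP to Phase 1 with sgControl (3.26% and 3.23%). For sgCbfb against sgControl, 0 rose and 0 fell in LP (1.76% and 1.09%), and 1 rose and 1 fell in Phase 1 (3.37% and 2.6%). With sgCTCF the smallest adjusted P was that of Bcl2l11, which encodes the BH3-only protein BIM (1.04 ± 0.12, adjusted P = 1.3e-06).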
